A study of Hordeum vulgare with 32 samples.

Results

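MLOC_77511.1 and AK363795 are a pair of barley kinesin transcripts, chosen as 2 of the 30174 rows of the deposited table because their levels in the line vrs1 differed from those in Bowman in opposite directions. Their levels in vrs1 against Bowman are therefore given as a description, with no test. RNA of the main shoot apex of barley (Hordeum vulgare) was sequenced in 32 libraries. The introgression lines vrs1 (stock GSHO 1907), int-a.1 (GSHO 2055), vrs4.k (GSHO 1986) and int-c.5 (GSHO 2003), all in the background of cultivar Bowman, had 3 libraries at each of Waddington stages W5.5 and W3.5, and Bowman itself had 4 at each. Waddington stages describe how far the barley inflorescence has developed, and the table's headers give the later stage as W5.0. All plants were untreated and grown in long days, and tissue enriched for the apical meristem was taken at the middle of the day. The labels do not give the size of the introgressed segments, the lesions, or whether replicates came from separate plants, so p-values measure the spread between libraries, which may be technical.

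Kinesins are motor proteins that use ATP to move along microtubules. In plant cells they carry cargo, build and focus the spindle, and assemble the phragmoplast, the microtubule array that lays down the new cell wall between daughter nuclei. Plants lack conventional cytoplasmic dynein, and their kinesin families are large. The best Arabidopsis matches of the pair, AT2G21300 for MLOC_77511.1 and AT4G38950 for AK363795, are annotated as microtubule motors and belong to the same kinesin family as HINKEL, a motor needed for phragmoplast expansion in Arabidopsis. The locus VRS1, after which the line vrs1 is named, encodes a homeobox protein that represses the lateral spikelets of 2-rowed barley.

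The 2 rows shared more best matches in other grasses with each other than with any other row of the table. Both had Bradi5g17020 as their best Brachypodium match and LOC_Os04g45580, a rice gene with a kinesin motor domain, as their best rice match, and no other row had either. They also shared their best sorghum and Aegilops matches, Sb06g023880 and AEGTA07115, together with 1 further row, MLOC_57796.1. MLOC_77511.1 is a high-confidence gene model at position 80.03 of chromosome 2 on the PopSeq genetic map, while AK363795 has no confidence class and no map position in the table. No genome was used, so no exon or base coordinates are reported. Quantification with Salmon, which the submitters' processing notes name, divides reads among similar transcript models. How alike the sequences of the pair are was not analysed here, and whether reads were divided between them was not tested.

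MLOC_77511.1 was higher in vrs1 than elsewhere, and had 0.4 to 1.2 TPM in the 26 libraries of the other lines. At W5.5 it had 8.9, 7.4 and 8.9 TPM (an abundance scaled for transcript length and library) in the vrs1 libraries, against 0.9, 0.8, 0.9 and 0.9 TPM in Bowman. At W3.5 it had 6.7, 10.7 and 5.9 TPM in vrs1, against 1, 0.7, 1.2 and 1 TPM in Bowman. All 6 vrs1 libraries lay above all 8 Bowman libraries, and the groups did not overlap. Over the whole table, 25 rows (0.0829%) had all 6 vrs1 libraries above all 8 Bowman libraries; as this contrast chose the pair, nothing is read from it. The mean was 9.60 times as high in vrs1 as in Bowman at W5.5 (8.40 ± 0.866 TPM, SD, n = 3, against 0.875 ± 0.05, n = 4) and 7.97 times at W3.5 (7.77 ± 2.57 against 0.975 ± 0.206 TPM). On the log2(TPM + 1) scale, which understates changes of weakly expressed rows, the differences were 2.32 and 2.12.

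AK363795 had the opposite pattern. At W5.5 it had 0.1 TPM in each of the 3 vrs1 libraries, against 8.8, 7.8, 7.1 and 8.1 TPM in Bowman. At W3.5 it had 1.1, 0 and 0.1 TPM in vrs1, against 9.9, 7.7, 8.9 and 7.6 TPM in Bowman. All 6 vrs1 libraries lay below all 8 Bowman libraries, as they did in 100 rows (0.331%) of the table. A level of 0.1 TPM is the smallest step above 0 that these columns hold, so no fold is given, and the differences on the log2(TPM + 1) scale were -3.02 at W5.5 and -2.84 at W3.5. The highest vrs1 value, 1.1 TPM, came from W3.5 replicate 1, and without that library the W3.5 difference was -3.18. For comparison, the authors' deposited table gives overall log2 fold changes of vrs1 against Bowman of 2.61 for MLOC_77511.1 and -3.62 for AK363795.

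**Figure D1:**
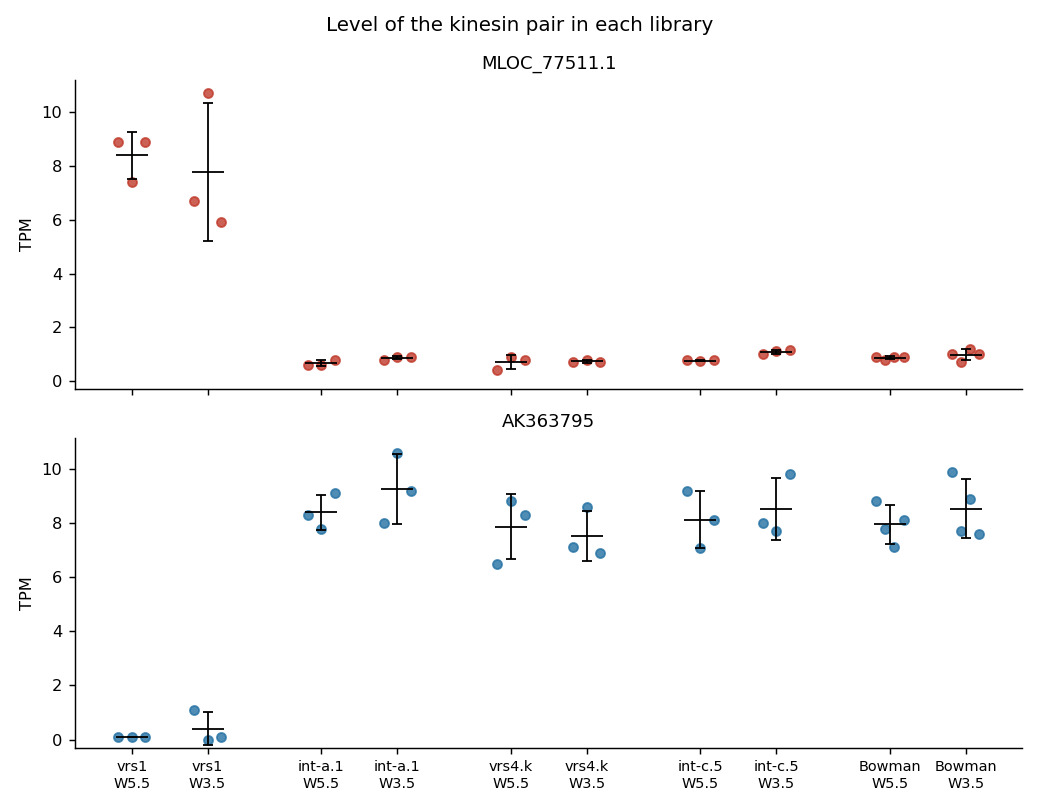
TPM of MLOC_77511.1 (upper panel) and AK363795 (lower panel) in every library, by line and stage; points are libraries, horizontal bars are means and error bars are SDs (n = 3, or 4 for Bowman). The 6 vrs1 libraries stand between 5.9 and 10.7 TPM for MLOC_77511.1 and at or below 1.1 TPM for AK363795, and the other 26 libraries between 0.4 and 1.2 TPM and between 6.5 and 10.6 TPM.

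The other 3 introgression lines had the Bowman pattern for both rows. MLOC_77511.1 in int-a.1 had 0.6, 0.6 and 0.8 TPM at W5.5 and 0.8, 0.9 and 0.9 TPM at W3.5. In vrs4.k it had 0.4, 0.9 and 0.8 TPM at W5.5 and 0.7, 0.8 and 0.7 TPM at W3.5. In int-c.5 it had 0.784, 0.733 and 0.772 TPM at W5.5 and 1, 1.12 and 1.14 TPM at W3.5, the first of these from a column rounded to whole numbers. Averaged over both stages its mean was highest in vrs1 (8.08 ± 1.75 TPM, n = 6), followed by int-c.5 (0.925 ± 0.185), Bowman (0.925 ± 0.149, n = 8), int-a.1 (0.767 ± 0.137) and vrs4.k (0.717 ± 0.172), and below vrs1 the ranges of neighbours in this order overlapped. The widest step among them, between int-a.1 and Bowman, was not called (limma adjusted p = 0.610).

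AK363795 had 8.3, 7.8 and 9.1 TPM in int-a.1 at W5.5 and 8, 10.6 and 9.2 TPM at W3.5. In vrs4.k it had 6.5, 8.8 and 8.3 TPM at W5.5 and 7.1, 8.6 and 6.9 TPM at W3.5. In int-c.5 it had 9.18, 7.09 and 8.12 TPM at W5.5 and 8, 7.72 and 9.83 TPM at W3.5. These 3 lines overlapped with Bowman at both stages. Over both stages the order was int-a.1 (8.83 ± 1.04 TPM), int-c.5 (8.32 ± 1.00), Bowman (8.24 ± 0.904), vrs4.k (7.70 ± 0.982) and vrs1 (0.25 ± 0.418), and the first 4 differed from their neighbours by less than their SDs.

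Neither row was called in any comparison that the choice of the pair did not use. Each was tested in 17 contrasts with limma, in 1 fit of all 32 libraries, where a row is called at a Benjamini-Hochberg adjusted p below 0.05 over all rows: int-a.1, vrs4.k and int-c.5 against Bowman at each stage, averaged over stages and as an interaction with stage, and W5.5 against W3.5 within each line. Of these 34 values, 0 were called by limma and 0 had an unadjusted p below 0.05. The log2 differences lay between -0.27 and 0.14, and the 95% intervals between -0.64 and 0.64. The smallest unadjusted p was 0.0758, for MLOC_77511.1 in vrs4.k against Bowman averaged over stages (difference -0.17, limma adjusted p = 0.469). Over the whole table, the shares of rows called at W5.5, at W3.5 and averaged were 0.709%, 0.653% and 2.13% in int-a.1, 0.696%, 0.653% and 1.54% in vrs4.k, and 0.106%, 0.0994% and 0.345% in int-c.5. The interactions had 0% called, as had the stage contrasts apart from int-a.1, with 0.00994%. The 0 calls of the pair are near these shares, so nothing is read from that count. The contrasts of other lines with Bowman, and the stage contrasts of vrs1 and Bowman, share libraries with the contrast that chose the pair.

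Neither member was called between the stages in any line. In vrs1 the difference of W5.5 from W3.5 was 0.14 for MLOC_77511.1 (95% interval -0.15 to 0.42, limma adjusted p = 0.759) and -0.27 for AK363795 (-0.64 to 0.11, limma adjusted p = 0.690). Without vrs1 W3.5 replicate 1 the AK363795 difference in vrs1 was 0.07, and without vrs1 W3.5 replicate 2 that of MLOC_77511.1 was 0.36. In Bowman the differences were -0.07 for MLOC_77511.1 (-0.31 to 0.18, limma adjusted p = 0.743) and -0.09 for AK363795 (-0.41 to 0.24, limma adjusted p = 0.762).

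The sum of the pair was similar in vrs1 and Bowman, while its makeup was not. At W5.5 the summed level was 8.50 ± 0.866 TPM in vrs1 (n = 3) and 8.83 ± 0.714 TPM in Bowman (n = 4), a ratio of 0.963, and at W3.5 it was 8.17 ± 2.37 TPM in vrs1 and 9.50 ± 1.20 TPM in Bowman, a ratio of 0.860. Both differences were smaller than the larger of the SDs. The sum lay between 6 and 10.7 TPM in the 6 vrs1 libraries and between 6.9 and 11.5 TPM in the other 26, so the ranges overlapped. MLOC_77511.1 made up 85.9% to 100% of the sum in the vrs1 libraries and 5.80% to 12.7% in the others (median 9.13%). Both rows were chosen for opposite differences, which makes a sum nearer to Bowman's than either row part of the choice, and the sum was not tested.

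**Figure D2:**
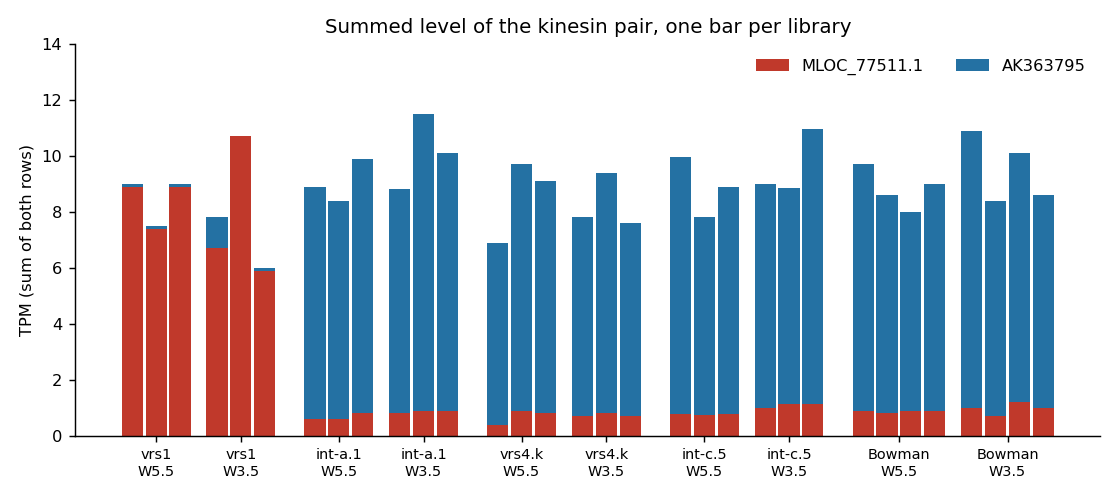
Summed TPM of the pair, 1 bar per library, split into MLOC_77511.1 and AK363795, by line and stage. The vrs1 bars consist of MLOC_77511.1 by 85.9% or more and reach 6 to 10.7 TPM, while in the other 26 libraries AK363795 takes the larger part and the bars reach 6.9 to 11.5 TPM.

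The correlation of the 2 rows across libraries depended on whether vrs1 was included. Over all 32 libraries the Pearson r of log2(TPM + 1) was -0.966 and Spearman's rho was -0.215. Over the 26 libraries outside vrs1 the Pearson r was 0.524 and rho was 0.468. Within the 6 vrs1 libraries r was -0.462 and rho was -0.686. The libraries fall into separate clusters for both rows, the values share a library and its scaling, and the correlations are given as a description.

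The other kinesin rows of the table show where the pair stands in its family. The word kinesin in any description of the best Arabidopsis or rice match gave 92 rows, of which 60 are high-confidence and 31 low-confidence models; 59 have a map position and 10 lie on chromosome 2. By mean TPM, MLOC_77511.1 ranked 70th of 92 in vrs1 and 92nd in Bowman, and AK363795 ranked 92nd in vrs1 and 69th in Bowman. Each member thus took nearly the rank in one line that the other had in the other line. Opposite changes of rank follow from the choice of the pair by this contrast, so nothing is read from them. The 90 other rows had mean levels between 2.49 and 195 TPM. The highest, AK370864, has conflicting descriptions: the long name of its Arabidopsis match is a phragmoplast kinesin, while its other descriptions are of a cytochrome P450. Without it the range of the 89 remaining rows was 2.49 to 181 TPM with a median of 20.6 TPM. The counts of calls below were the same without AK370864 in all 21 contrasts. Some of the 89 rows rest on the rice description alone. Among them are MLOC_38287.1, whose Arabidopsis match is a spliceosomal protein, and AK251309.1, whose Arabidopsis match is an unknown protein.

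None of the other kinesin rows was called between vrs1 and Bowman by limma. Of the 90 rows, 0 were called by limma in vrs1 at W5.5 (2 at an unadjusted p below 0.05), 0 at W3.5 (1) and 0 averaged over stages (2). Of all rows, 0.325%, 0.341% and 0.497% were called in these contrasts, and 4.3%, 5.18% and 6.83% had an unadjusted p below 0.05. For the calls, 0 of 90 is near the shares of all rows, so nothing is read from it. The 2 rows with an unadjusted p below 0.05 in the average were MLOC_29388.1 (difference 0.33) and AK361824 (0.18). The median difference of the 90 rows was 0.03 at W5.5 and 0.06 at W3.5, against -0.03 and 0.00 over all rows. In 0 of the 90 rows did the 6 vrs1 libraries lie all above or all below the 8 Bowman libraries. Of all rows, 0.0829% lay all above and 0.331% all below, so 0 of 90 is near those shares. MLOC_60993.2, matching the Arabidopsis cell-shape motor KINESIN-13A, had 91.2 ± 3.57 TPM in vrs1 (n = 6) and 86.4 ± 8.98 TPM in Bowman (n = 8). The spindle motor match MLOC_54712.1, of a family that slides antiparallel microtubules apart, had 60.2 ± 8.30 TPM in vrs1 and 56.6 ± 14.2 TPM in Bowman.

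**Figure D3:**
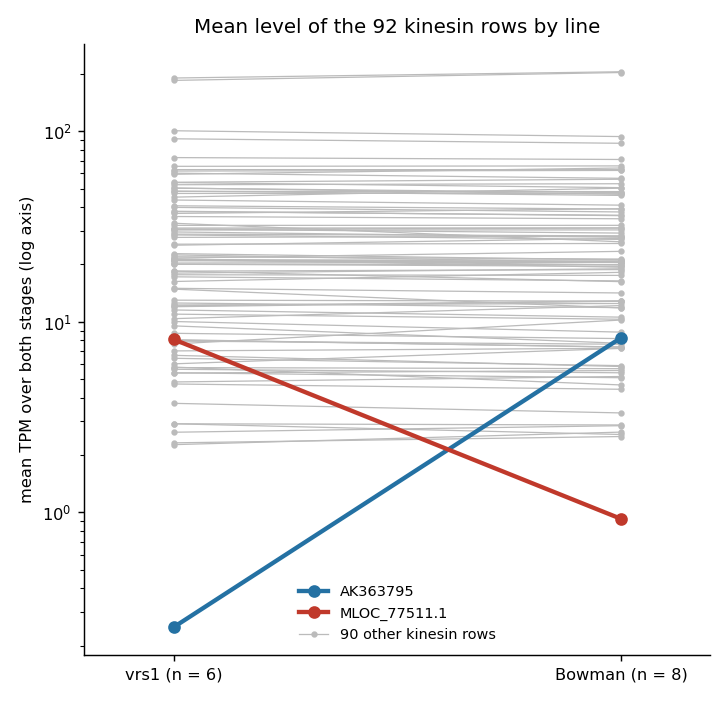
Mean TPM over both stages of each of the 92 kinesin rows in vrs1 (left, n = 6) and Bowman (right, n = 8), on a log axis; a line joins the means of a row. The lines of the 90 other rows run nearly level, and those of MLOC_77511.1 and AK363795, chosen for opposite differences, cross each other.

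The rows that share some best matches with the pair did not move with it. MLOC_57796.1 (chromosome 6, position 60.06) shares the sorghum, Aegilops and Arabidopsis matches of MLOC_77511.1 and had 28.8 ± 3.77 TPM in vrs1 against 28.2 ± 4.31 TPM in Bowman (difference 0.04, limma adjusted p = 0.972). MLOC_35911.1 (chromosome 7, position 70.47), with the same Arabidopsis match, had 45.1 ± 22.2 TPM in vrs1 against 50.2 ± 16.7 TPM in Bowman (-0.17, limma adjusted p = 0.943). Both were far above either member, and in both rows the vrs1 and Bowman libraries overlapped.

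In the other introgression lines 1 of the 90 rows was called. MLOC_29440.1, a low-confidence row with a kinesin-like rice match, had 18.0, 11.9 and 15.8 TPM in the W5.5 libraries of int-a.1, against 8.0, 7.8, 5.1 and 9.3 TPM in Bowman (difference 0.93, SE 0.183, limma adjusted p = 0.00776). All 3 int-a.1 libraries lay above the 4 Bowman libraries, and 0.709% of all rows were called in this contrast. The call was lost without int-a.1 W5.5 replicate 1 or with only the compared groups in the fit. In vrs1 at W5.5 MLOC_29440.1 had 9.40 ± 1.25 TPM.

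Between the stages of Bowman the nearest relatives of the pair were higher at W5.5, at an unadjusted p only, while neither member passed that threshold. The 9 rows whose Arabidopsis match is that of a member or a close relative of it had a median difference of W5.5 from W3.5 of 0.82 in Bowman (range 0.25 to 1.02), against 0.10 over all rows. All 9 had an unadjusted p below 0.05, against 22.2% of all rows, and 0 were called by limma (smallest adjusted p = 0.104), with 0% of all rows called. MLOC_30950.1, matching AT3G51150, differed by 1.02 and the lowest of the 9, MLOC_57796.1, by 0.25. In vrs1 the median of the 9 rows was 0.64, with 3 at an unadjusted p below 0.05 and 0 called, and without vrs1 W5.5 replicate 3 the median was 0.34. The medians were 0.75 in int-a.1, 0.61 in int-c.5 and 0.18 in vrs4.k, with 5, 2 and 0 of the 9 rows at an unadjusted p below 0.05 and 0 called in each line. With the first principal component of the libraries as a covariate the medians were 0.07 in vrs1 and 0.21 in Bowman. That component largely follows stage, so the covariate takes away part of a stage difference by construction, and nothing is read from the drop. The median over all rows in Bowman was then 0.01. Without the covariate, the differences of W5.5 from W3.5 for MLOC_77511.1 and AK363795, given above, lay at or below 0.14 in both lines. However, MLOC_77511.1 had only 0.7 to 1.2 TPM in Bowman and AK363795 only 0 to 1.1 TPM in vrs1. At such levels the log2(TPM + 1) scale understates changes, so these values cannot be set directly against those of the relatives.

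The other groups of kinesins had smaller median differences between the stages, and the gap between groups was not tested. In Bowman the median was 0.29 for the 12 cytokinesis motors, which include matches of HINKEL and of the division-plane motors POK1 and POK2, 0.25 for the 6 spindle motors and 0.07 for the 7 motors linked to cell shape. Of all 90 rows, 37 (41.1%) had an unadjusted p below 0.05 in Bowman, 35 of them higher at W5.5, and 0 were called by limma. In vrs1, 15 of 90 (16.7%) had an unadjusted p below 0.05, against 7.16% of all rows. Library position bears on these counts: 4 libraries scored beyond the opposite stage's median along the first principal component, namely replicate 4 of Bowman, replicate 1 of int-a.1 and replicate 2 of vrs4.k from W3.5, and replicate 1 of int-c.5 from W5.5. Without them 32 of the 90 rows, and 8 of the 9 relatives, were called in Bowman, with 10.6% of all rows called. These libraries were picked by their place along the stage axis, so leaving them out favours stage differences. The pair was not called without them either (MLOC_77511.1 -0.06, AK363795 -0.13, limma adjusted p = 0.792 and 0.630). Without Bowman W3.5 replicate 4 alone, 9 of the 90 rows were called, with 1.38% of all rows called, and with library weights 12 were, with 5.48% of all rows called. Since these are bulk samples, more cells of a type and more RNA per cell cannot be told apart.

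**Figure D4:**
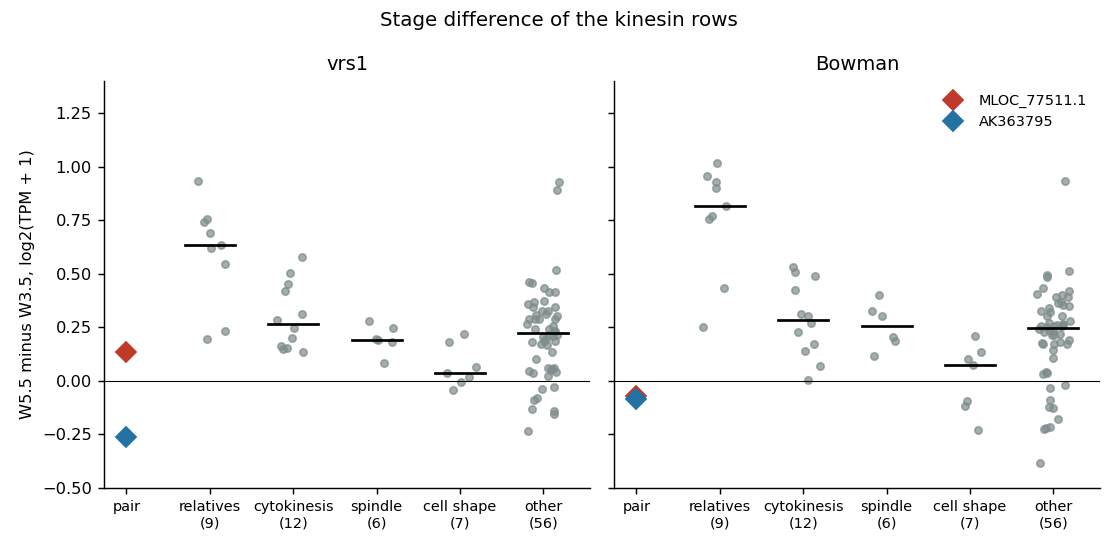
Difference of W5.5 from W3.5 on the log2(TPM + 1) scale in vrs1 (left) and Bowman (right) for the pair (diamonds) and for the 90 other kinesin rows by role (points; horizontal bars are medians; number of rows in brackets). The 9 relatives of the pair have medians of 0.64 in vrs1 and 0.82 in Bowman, and the pair lies between -0.27 and 0.14. MLOC_77511.1 in Bowman and AK363795 in vrs1 are weakly expressed, where this scale understates changes.

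Other genes of the microtubule and division machinery gave 0 calls in the 21 contrasts run, but this count depended on the fit. It was 5 without Bowman W3.5 replicate 4, 31 without the 4 libraries named above and 103 with library weights. The share of all rows called over the same contrasts is not given for these fits, so nothing is read from the counts. In vrs1 against Bowman averaged over stages, an unadjusted p below 0.05 was found for 2 of 31 tubulin rows, 0 of 37 rows of microtubule-associated proteins, 0 of 8 further cytokinesis and phragmoplast rows, 0 of 22 mitotic cyclin and CDKB rows and 2 of 59 myosin and dynein rows, against 6.83% of all rows. The medians of these lists lay between 0.01 and 0.09, against -0.01 over all rows. Tissue markers overlapped between vrs1 and Bowman. The summed level of 12 KNOX meristem rows was 337 to 440 TPM in vrs1 and 301 to 461 TPM in Bowman. That of 24 chlorophyll a/b-binding rows, taken as markers of green leaf, was 565 to 971 TPM in vrs1 and 534 to 988 TPM in Bowman. In int-c.5 the chlorophyll a/b-binding rows had 793 to 1483 TPM.

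Across the table, a few rows shared the pattern of each member, and none of those named below was described as a kinesin. Likeness was measured as the Pearson r of log2(TPM + 1) over 32 libraries, which for these rows mainly sets vrs1 against the rest, so the levels of the rows found follow from the choice. The row most like MLOC_77511.1 was AK374443, matching a GDA1/CD39 nucleoside phosphatase, an enzyme family that removes phosphate from nucleotides (r = 0.980). AK374443 had 5.7, 7.2 and 7.3 TPM in vrs1 at W5.5 and 6.2, 8.4 and 8.0 TPM at W3.5. In Bowman it was listed at 0 in 6 of 8 libraries and had 0.3 and 0.6 TPM in the other two. The next were AK367537, an EF-hand calmodulin-related row of the calcium-binding type (r = 0.901), MLOC_59755.2, matching the rice MADS-box gene OsMADS65 (0.867), the NB-ARC disease-resistance match MLOC_77081.1 (0.839) and MLOC_26580.1, without a match (0.772). MLOC_59755.2 had 24.8 ± 7.78 TPM in vrs1 against 4.89 ± 1.80 TPM in Bowman.

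The rows most like AK363795 were AK249918.1, with a DNA-binding rice match (r = 0.949), MLOC_44929.1 (0.933), MLOC_23153.1 (0.839), MLOC_43259.1 (0.779) and the histidine triad match MLOC_5274.3 (0.731). AK249918.1 had 0.533 ± 0.207 TPM in vrs1 (n = 6) and 3.90 ± 1.07 TPM in Bowman (n = 8). MLOC_44929.1 had 1.02 ± 0.264 TPM in vrs1 and 5.96 ± 1.30 TPM in Bowman. Of all rows, the lowest r with MLOC_77511.1 was that of AK363795 (-0.966), followed by MLOC_44929.1 (-0.937) and AK249918.1 (-0.930). The lowest with AK363795 was that of AK374443 (-0.976), followed by MLOC_77511.1 (-0.966) and MLOC_59755.2 (-0.892). Over the 26 libraries outside vrs1 the likeness of the 5 highest rows was weaker, with r between -0.29 and 0.32 for MLOC_77511.1 and between -0.39 and 0.23 for AK363795. By Spearman's rho, 1 of the 5 rows was among the 5 highest for MLOC_77511.1 and 0 of the 5 for AK363795.

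MLOC_77511.1 lies on the map near a homeobox row, AB259783.1 (MLOC_4993.2), at position 79.39 of chromosome 2, which is 0.637 map units away. AB259783.1 (MLOC_4993.2) ranged from 4.9 to 30 TPM in the 6 vrs1 libraries and from 3.8 to 30.9 TPM in the 8 Bowman libraries, and the groups overlapped (averaged difference -0.03, limma adjusted p = 0.997). Of the 27 rows within 1 map unit of MLOC_77511.1, 0 were called by limma in vrs1 at either stage or averaged. Of all rows, 0.325% were called at W5.5, 0.341% at W3.5 and 0.497% averaged, so 0 of 27 is near those shares. The averaged differences of the 27 rows ran from -0.60 to 0.39. In the average, 1 row was called without Bowman W3.5 replicate 1 and 1 with library weights. MLOC_77511.1 was chosen for its large difference, so smaller differences of its neighbours follow from the choice and nothing is read from them.

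Within 5 map units, 6 of 138 rows (4.35%) were called in vrs1 averaged over stages, against 0.497% of all rows. AK367537, the calmodulin-related row named above, rose in vrs1, with 10.6 to 13.1 TPM against 4.0 to 8.3 TPM in Bowman (difference 0.83), and its call held in each alternative run. The heavy-metal-domain match MLOC_22984.1, of a family that binds metal ions, fell to 1.73 TPM on average in vrs1, against 4.46 TPM in Bowman (-0.92, SE 0.182, limma adjusted p = 0.00884), and held likewise. MLOC_27647.1 (0.58) and MLOC_51316.3 (-1.15), neither with an informative match, lost their calls with only the compared groups in the fit. The cytochrome b561 match AK370622, of a family of membrane electron carriers, had 6.78 TPM in vrs1 and 2.88 TPM in Bowman (1.11, limma adjusted p = 0.0415), a call lost in 20 of 32 fits that left out 1 library. The histidine triad match MLOC_5274.3 had 7.95 TPM in vrs1 and 10.6 TPM in Bowman (-0.37, limma adjusted p = 0.0205), lost in 7 of those 32 fits and under both other scalings. AK370622, MLOC_5274.3 and AK367537 lie 2.94 to 3.26 units to the lower side of MLOC_77511.1 and the other 3 rows to its upper side. By stage, 2 of the 138 rows were called at W5.5 (1.45%, against 0.325% of all rows) and 1 at W3.5 (0.725%, against 0.341%). All 6 differences were smaller than the averaged 2.22 of MLOC_77511.1, which follows from its choice by that contrast. AK363795 cannot be placed because it has no map position in the table.

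**Figure D5:**
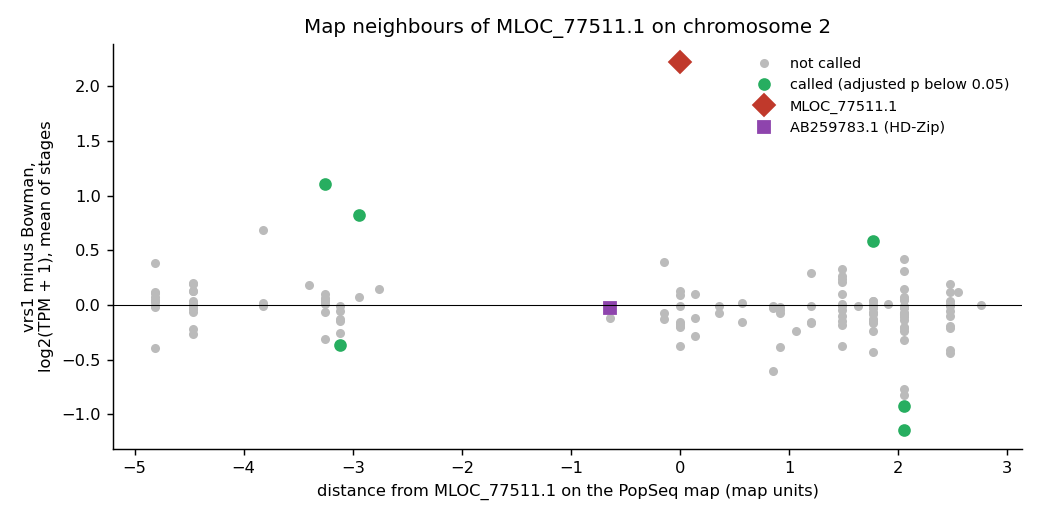
Averaged difference of vrs1 from Bowman on the log2(TPM + 1) scale against the distance from MLOC_77511.1 on the PopSeq map, for the 138 rows within 5 map units; filled green points are called (limma adjusted p below 0.05), the diamond is MLOC_77511.1 itself, at 2.22, and the square is the homeobox row AB259783.1 (MLOC_4993.2). The 6 called rows lie on both sides, none within 1 unit of MLOC_77511.1.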

How the data were processed

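The authors deposited 1 table with 30174 transcripts. The file headers call the expression values raw counts; most are fractional, with library sums of 980945 to 987728, so the deposited values were taken as TPM; 1 deposited column (int-c.5 W3.5 replicate 1) holds whole numbers and was recorded as a score on the same scale. The deposited log2 fold changes and false discovery rates (p-values) are the authors' own and were only quoted. BWA, Salmon, limma and GATK are named, per the submitters' processing notes, without versions. TPM keeps no depth, so depth is unknown. Columns name a line and stage but no sample, so replicate numbers are names only.

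A single limma model (version 3.58.1, R 4.3.3) covered every library, on log2(TPM + 1), with 10 groups and no covariate. The filter, at least 1 TPM in 3 libraries, removed 0 rows. The code was tested on simulated data. The members and lists were chosen with earlier results of these data known. Rows named are the pair, kinesin rows called or of highest mean, and rows sharing a match with a member. The rows of highest and lowest likeness and the homeobox map neighbour are named too. The rule also covered map neighbours called in vrs1 within 1 map unit. The called neighbours farther out, MLOC_22984.1, MLOC_27647.1, MLOC_51316.3 and AK370622, were named after their values were seen. So were MLOC_29388.1, AK361824 and MLOC_30950.1. A search for kinesin in free text would add 7 rows, which were kept out. Leave-one-out fits, other scalings, pseudocounts, weights and filters were tried as alternatives. No identifier matched the reference gene table used here (0 rows).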

Additional observations from a re-analysis of the deposited data

Results flagged for a closer look

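Of 50 groups of 4 Bowman libraries examined, 4 held a library apart from the other 3 by Dixon's criterion, which chance meets in about 1 in 20 groups. MLOC_77511.1 had 0.8 TPM in Bowman W5.5 replicate 2 and 0.9 TPM in the other 3 libraries, a gap of 1 rounding step. AK374443 had 0.6 TPM in Bowman W3.5 replicate 1 and 0.3 TPM in Bowman W5.5 replicate 4, and was listed at 0 in the other Bowman libraries. AK249918.1 had 2.7 TPM in Bowman W5.5 replicate 4 and 3.6 TPM in the other 3.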

How the results depend on the processing

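The opposite differences of the pair in vrs1 kept their direction in every alternative run, and 0 of the 34 tested member values were called in any. With a pseudocount of 0.1 the vrs1 differences of MLOC_77511.1 were 2.84 at W3.5, 3.12 at W5.5 and 2.98 averaged, and those of AK363795 were -4.89, -5.33 and -5.11; the smaller pseudocount widens differences of low rows by construction. With library weights AK363795 differed by -2.51 at W3.5, and the stage difference of MLOC_77511.1 in Bowman was 0.026 and uncalled. Leaving out single libraries, the W3.5 difference ran from 1.89 to 2.27 for MLOC_77511.1 and from -3.18 to -2.64 for AK363795, and the uncalled stage difference in vrs1 from -0.018 to 0.363 and from -0.466 to 0.069. Under quantile normalization the sum of the pair differed by -1.23 TPM at W3.5 and 0.09 TPM at W5.5.

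Calls among the 90 other kinesin rows depended on the fit, and the cause was not tested. With library weights they were 2 (W3.5), 3 (W5.5), 8 (average) and 1 (interaction) in int-a.1, and 1 (W5.5) and 2 (average) in vrs4.k. Between stages, weights gave 46 in int-a.1 (51.1%, against 25.5% of all rows) and 12 in Bowman (13.3%, against 5.48%). They gave 2 in vrs4.k (2.22%, against 3.77%) and 9 in int-c.5 (10%, against 26.3%), both below the share of all rows. Shares of all rows are not given for the line contrasts, the other lists or the map neighbours below, so nothing is read from them. In int-a.1 at W5.5 the kinesin calls were 0 with only the compared groups or with Arabidopsis descriptions only, and 2 with free-text rows. Averaged they were 1 with the first principal component or with free-text rows. The free-text search and the list without AK370864 were added after the data were seen. Without the 4 libraries apart, the kinesin calls between stages were 1 in int-a.1 (1.11%, against 0.663% of all rows) and 32 in Bowman (35.6%, against 10.6%). Leaving out single libraries gave 0 to 9 in Bowman between stages, 0 to 2 in int-a.1 at W5.5 and 0 to 1 in vrs4.k at W3.5. Rows of the other microtubule and division lists had 103 calls over all contrasts with library weights, 31 without the 4 libraries apart, and 0 to 5 without single libraries. Map neighbours of MLOC_77511.1 called in vrs1 on average numbered 11 within 5 units and 1 within 1 unit with library weights, 3 within 5 units with only the compared groups, and 4 to 7 and 0 to 1 without single libraries. These alternatives were added later too. By Spearman's rho, 1 and 0 of the 5 rows most like MLOC_77511.1 and AK363795 stayed among the 5 highest.

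No paired analysis was possible because the replicate numbers of the columns match no label of the samples. Depth is unknown, and rounding to 1 decimal limits AK363795 in vrs1.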
